A study of Mus musculus with 12 samples.

Results

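The 10 genes Nlrc5, Psmb8, Psmb9, Psmb10, Psme1, Psme2, Tap1, Tap2, Tapbp and Tapbpl make, carry and load the peptides that class I molecules present. They were chosen by gene symbol, and 10 of 10 were listed in each of the 5 tables of comparisons, among 14097 genes that all 5 tables share. The cultures held pieces of MC38 tumour, a mouse colon carcinoma model, in a strain given as C57BL/6 albino. Pieces from the 40 to 100 µm fraction were set in 2.8 mg/mL collagen in a microfluidic chip and treated for 6 days in 300 µL of medium. The 4 groups had 3 libraries each. IFNg wells received interferon-gamma protein at 100 ng/mL, and no antibody is named for them. The aPD-1+CD8 wells received the PD-1 antibody RMP1-14 and a CD8 antibody, each at 10 µg/mL. The aPD-1 wells received RMP1-14 alone at 10 µg/mL, and the IgG wells received the control antibody 2A3 at 10 µg/mL. The receptor PD-1 restrains T cells, and killer T cells carry CD8. Libraries were made by exome capture from 250 ng of total RNA.

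The proteasome cuts cytosolic proteins into peptides, and interferon-gamma makes cells replace its 3 constitutive catalytic subunits by inducible ones, which gives the immunoproteasome. The resulting peptides pass through the TAP transporter into the endoplasmic reticulum and are loaded there onto class I molecules, which killer T cells read. NLRC5 is a transactivator that drives class I genes together with factors bound to their promoters. Tumours with low expression of this machinery are known to be harder for T cells to recognise.

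Promoter sequence was at hand for 7 of the 10 genes, from RefSeq on GRCm38.p6, a later build than the mm9 of the expression tables. Each window runs from 250 bases before the annotated start to 50 bases from it on. The windows of 4 genes are shown because Tap1 and Psmb9 share 1 stretch of DNA, Psmb8 and Psme1 hold interferon-type motifs, and Psmb10 had the largest deposited change of the 10 with IFNg against IgG. Capitals mark motif matches on either strand. The strand is + for Tap1 (chr17:34187306-34187605), Psmb8 (chr17:34197945-34198244) and Psme1 (chr14:55578244-55578543), and - for Psmb10 (chr8:105938343-105938642).
Tap1: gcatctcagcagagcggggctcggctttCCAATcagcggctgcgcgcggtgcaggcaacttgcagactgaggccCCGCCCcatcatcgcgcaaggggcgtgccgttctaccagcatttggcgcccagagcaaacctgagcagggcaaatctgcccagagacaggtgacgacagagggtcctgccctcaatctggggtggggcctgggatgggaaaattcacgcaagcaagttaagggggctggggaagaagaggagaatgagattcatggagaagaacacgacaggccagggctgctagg
Psmb8: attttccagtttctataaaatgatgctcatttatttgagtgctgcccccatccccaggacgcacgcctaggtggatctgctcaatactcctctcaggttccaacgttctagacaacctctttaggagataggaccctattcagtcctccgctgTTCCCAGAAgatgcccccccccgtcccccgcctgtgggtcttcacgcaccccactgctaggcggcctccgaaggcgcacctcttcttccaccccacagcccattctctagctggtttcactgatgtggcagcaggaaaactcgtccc
Psme1: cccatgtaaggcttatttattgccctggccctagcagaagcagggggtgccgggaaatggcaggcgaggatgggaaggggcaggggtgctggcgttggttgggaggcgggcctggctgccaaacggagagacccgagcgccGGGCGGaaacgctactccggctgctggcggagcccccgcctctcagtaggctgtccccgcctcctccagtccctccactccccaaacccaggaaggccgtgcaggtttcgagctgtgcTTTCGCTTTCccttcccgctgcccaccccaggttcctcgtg
Psmb10: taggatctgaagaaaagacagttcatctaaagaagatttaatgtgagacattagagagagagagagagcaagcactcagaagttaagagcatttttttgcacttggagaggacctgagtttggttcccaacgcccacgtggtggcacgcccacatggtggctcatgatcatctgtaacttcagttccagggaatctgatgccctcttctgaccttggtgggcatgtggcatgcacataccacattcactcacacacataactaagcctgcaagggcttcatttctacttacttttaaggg

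Motifs were searched on both strands as plain letters: the interferon-stimulated response element core (GAAA, NN, then GAAA), the gamma-activated site TTCNNNGAA, an NF-kB site (GGGA, N, then TTTCC), the Y box ATTGG and the GC box GGGCGG. The Tap1 and Psmb9 windows overlap by 275 bases on opposite strands, so their Y box and GC box are the same letters. The response element core lay at bases 10 to 19 of Psme1 on the - strand, counted with the start base as 1, and 3.44% of all 32851 windows held one. In Psmb8 the gamma-activated site lay at positions -97 to -89, and 8.30% of windows held one. Tapbp had Y boxes from position -248 and from position -165. Both Psme2 windows held GC boxes but no interferon-type match. Y boxes were in 37.4% and GC boxes in 35.7% of all windows, and the NF-kB letters in 0.411%. The Psmb10 window matched none of the 5 motifs, which says only that these letters are not in this window.

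**Figure D1:**
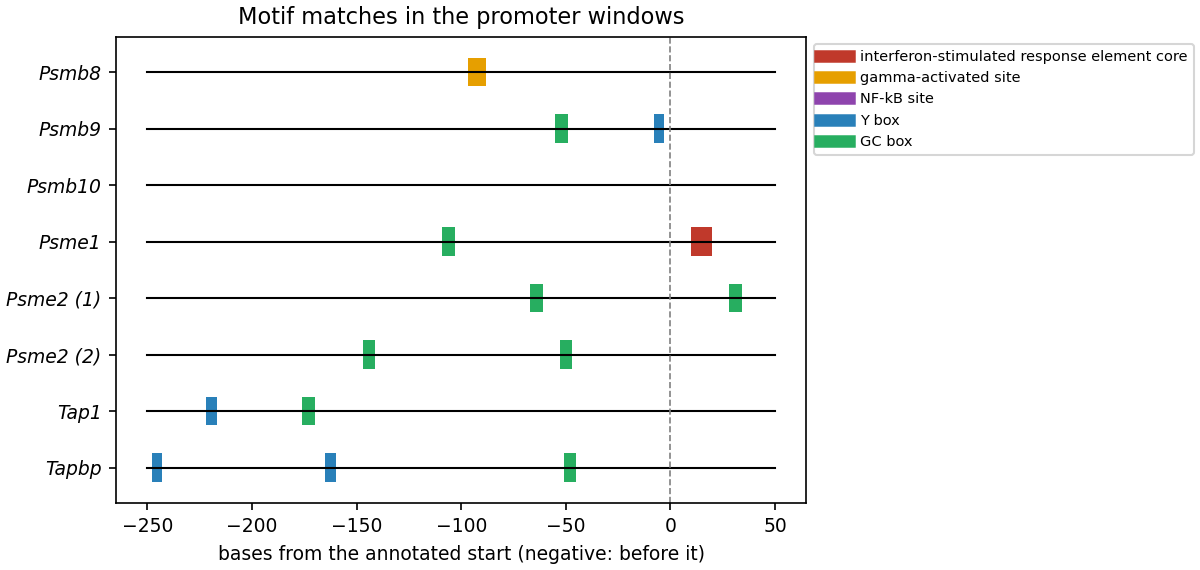
Motif matches in the promoter windows of 7 genes, with distance in bases from the annotated start on the x axis and 1 line for each window; Psme2 has 2 windows. Bars are matches on either strand: the response element core is in Psme1, the gamma-activated site in Psmb8, and the Psmb10 line is empty.

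The tables give no value for single libraries. Each gives a mean normalized count over both of its groups, so the level of a gene in each group was solved from the tables, with 1 depth factor fitted for each group. These levels are approximate group means and carry no SD. The IFNg mean of each of the 10 genes solved by a second route differed by at most 0.376%. The depth factors were fitted with both routes, so this is no separate check. The error of a difference is the standard error (SE) that the authors' tables give with each log2 fold change. The labels do not say whether the 3 libraries of a group are from different animals or cultures, so a p-value reflects the spread among these libraries alone, which may be technical. The mean counts summed to between 10292900 and 11590700 a table, of which the ribosomal RNA gene Rn45s held 27.8% to 29.6%. Epithelial marker genes were near absent: 6 of 6 had a mean count under 10 in IFNg v IgG. Whether MC38 cells express these genes is not known from these data, so the counts do not measure the share of tumour cells. The levels of the 2 found in all tables, Krt8 and Cdh1, summed to 2.03 in IFNg, 1.23 in aPD-1+CD8, 2.04 in aPD-1 and 5.91 in IgG cultures.

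All 10 genes were higher with IFNg than with IgG. Their levels together summed to 5154 normalized counts in IFNg cultures, against 1596 in aPD-1+CD8, 1634 in aPD-1 and 1584 in IgG cultures. The ratio of the approximate means of IFNg to IgG ran from 2.20 for Psme1 to 5.91 for Psmb10, with a median of 3.73. In the authors' deposited table for IFNg v IgG, 10 of 10 genes rose at an adjusted p under 0.05 (DESeq2), where 2.73% of the 11478 tested genes were called higher and 4.10% were called in either direction. The median log2 fold change of the 10 genes was 1.60 in that authors' deposited table, against 0.01 over all tested genes. With at least 1 in log2 required, 9 of 10 passed, all but Tapbpl, where 1.37% of tested genes did. In bulk RNA, a larger share of cells that express a gene and more RNA per cell cannot be told apart.

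**Figure D2:**
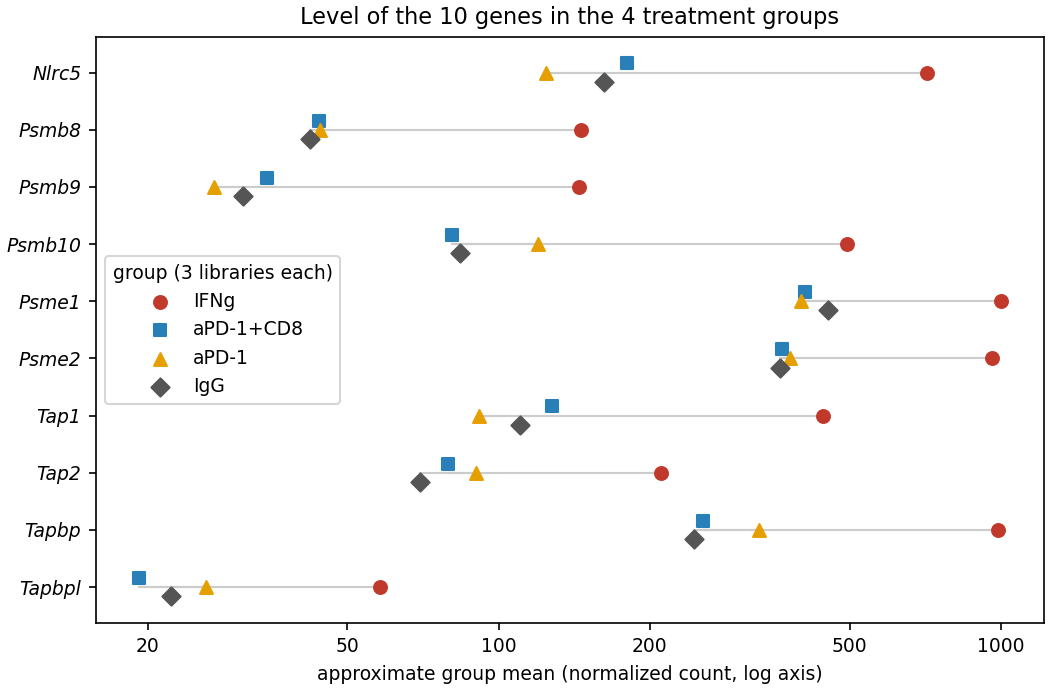
Approximate group mean of each of the 10 genes (x axis, normalized count, log scale) in IFNg, aPD-1+CD8, aPD-1 and IgG cultures, 3 libraries each, with no error bar because no library values were given. In every row the IFNg point lies to the right of the other 3; levels are not per length and are to be read within a row only.

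Nlrc5, the transactivator of class I genes, averaged 713 normalized counts in IFNg, 180 in aPD-1+CD8, 125 in aPD-1 and 162 in IgG cultures. Its log2 fold change in the authors' deposited table for IFNg v IgG was 1.93 ± 0.17 (SE), with an adjusted p of 1.42e-28 (DESeq2). Nlrc5 was thus the second of the 10 genes by p-value, after Psmb10.

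All 3 inducible catalytic subunits rose with IFNg. Psmb10, which takes the place of Psmb7, averaged 495 normalized counts in IFNg, 80.6 in aPD-1+CD8, 120 in aPD-1 and 83.7 in IgG cultures. Its log2 fold change of 2.25 ± 0.18 was the largest of the 10 in the authors' deposited table for IFNg v IgG (adjusted p = 1.04e-32). Psmb9, which replaces Psmb6, averaged 144 in IFNg, 34.6 in aPD-1+CD8, 27.2 in aPD-1 and 30.9 in IgG cultures, with a change of 1.72 ± 0.24 in the authors' deposited table (adjusted p = 2.91e-11). Psmb8, which replaces Psmb5 and holds the gamma-activated letters shown above, averaged 146 in IFNg, 44.0 in aPD-1+CD8, 44.1 in aPD-1 and 42.1 in IgG cultures. Its change was 1.48 ± 0.22 in the authors' deposited table (adjusted p = 8.16e-10). The IFNg level was the highest of the 4 for each of these subunits, and Psmb10 was 1.43 times as high in aPD-1 as in IgG cultures, a difference that was not called.

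Their constitutive counterparts were not called. Psmb5 had a log2 fold change of 0.10 ± 0.17, Psmb6 of -0.01 ± 0.17 and Psmb7 of 0.12 ± 0.14 in the authors' deposited table for IFNg v IgG. The count ratio of Psmb8 to Psmb5 in IFNg cultures was 3.21 times that in IgG cultures. The same comparison gave 4.72 for Psmb9 over Psmb6 and 5.42 for Psmb10 over Psmb7, ratios for which no test was made. In aPD-1 cultures these ratios were 1.03, 0.968 and 1.53 times those in IgG cultures, in the same order of genes. Of the 11 other subunits of the 20S core 1 rose with IFNg, the alpha subunit Psma5 at 0.44 ± 0.12 (adjusted p = 0.00837), and 0 fell in the authors' deposited table; the list's median was 0.09.

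PA28, a ring that opens the core particle and is built from the Psme1 and Psme2 products, had lower point estimates than the catalytic subunits, a difference that was not tested. Psme1, which has the response element letters just after its start, averaged 999 normalized counts in IFNg, 408 in aPD-1+CD8, 400 in aPD-1 and 453 in IgG cultures. Psme2 averaged 959 in IFNg, 367 in aPD-1+CD8, 380 in aPD-1 and 364 in IgG cultures. Psme1 rose by 1.07 ± 0.14 (adjusted p = 3.66e-13) and Psme2 by 1.27 ± 0.16 (adjusted p = 7.32e-13) in log2 in the authors' deposited table for IFNg v IgG. Psme2 has a near copy, Psme2b, whose reads may have been split with it; that copy was listed at a mean count of 19.1 and a change of 0.92 ± 0.28 in the authors' deposited table. Of the 7 other activators, assembly factors and inhibitors of the proteasome 0 rose and 0 fell with IFNg. They include Psme3, the nuclear relative of PA28, at -0.17 ± 0.15, and Pomp, which helps assemble the core, at 0.33 ± 0.19, in the authors' deposited table.

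**Figure D3:**
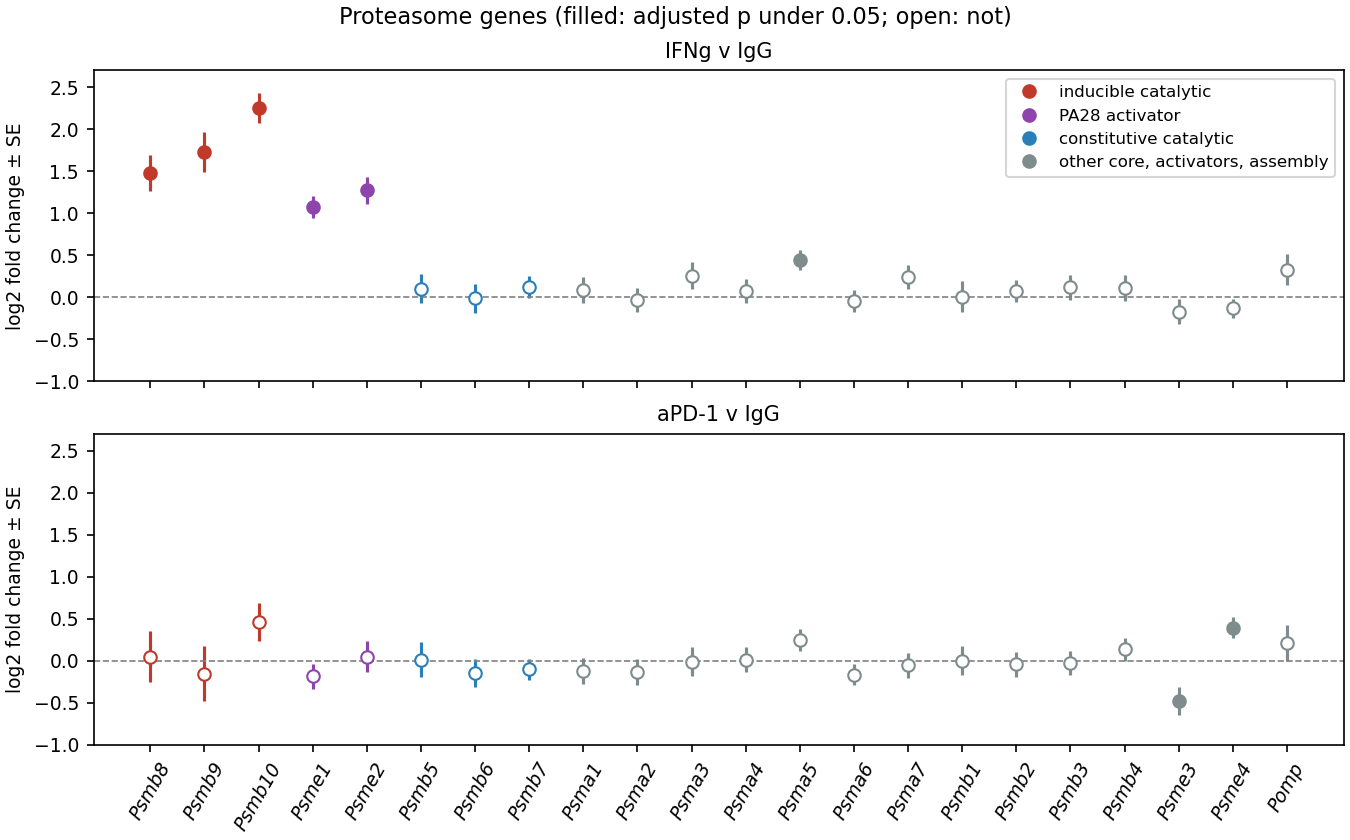
Deposited log2 fold change with its SE (y axis) of inducible catalytic subunits, PA28 genes, constitutive catalytic subunits and other proteasome genes, for IFNg v IgG (top) and aPD-1 v IgG (bottom); filled points have an adjusted p under 0.05. With IFNg the 5 genes at the left lie between 1.07 and 2.25 and the others between -0.17 and 0.44, with Psma5 the only filled point among them; with aPD-1 the filled points are Psme3 and Psme4.

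The TAP transporter is a pair of half-transporters encoded by Tap1 and Tap2. Tap1 averaged 443 normalized counts in IFNg, 128 in aPD-1+CD8, 91.4 in aPD-1 and 110 in IgG cultures. Tap2 averaged 211 in IFNg, 79.4 in aPD-1+CD8, 90.3 in aPD-1 and 69.9 in IgG cultures. In the authors' deposited table for IFNg v IgG, Tap1 rose by 1.75 ± 0.19 (adjusted p = 6.72e-18) and Tap2 by 1.40 ± 0.18 (adjusted p = 4.93e-12) in log2. Tap1 and Psmb9, which start from the same stretch of DNA in opposite directions, had changes of 1.75 and 1.72 in that authors' deposited table. The ratios of approximate means, which are not shrunken, gave 2.00 for Tap1 and 2.22 for Psmb9 in log2. The annotated exons of Tap1 and Psmb9 overlap, and without known strand their reads there cannot be told apart.

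Tapasin, encoded by Tapbp, holds class I molecules at TAP, and its relative TAPBPR, encoded by Tapbpl, edits the peptides they carry. Tapbp averaged 986 normalized counts in IFNg, 255 in aPD-1+CD8, 330 in aPD-1 and 245 in IgG cultures. Tapbpl, the gene with the fewest counts, averaged 58.1 in IFNg, 19.2 in aPD-1+CD8, 26.1 in aPD-1 and 22.2 in IgG cultures. In the authors' deposited table for IFNg v IgG, Tapbp rose by 1.83 ± 0.16 (adjusted p = 3.68e-27) and Tapbpl by 0.95 ± 0.26 (adjusted p = 0.00932). Tapbpl had the widest SE and the highest adjusted p of the 10 genes there. Deposited changes are shrunken toward 0 by different amounts: the ratio of approximate means gave 1.39 in log2 for Tapbpl and 2.22 for Psmb9.

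Other genes of the pathway were read from the same comparison. Of 9 listed class I molecules and loading chaperones 4 rose and 0 fell: H2-Q4 by 0.98 ± 0.14, H2-K1 by 0.88 ± 0.13, H2-D1 by 0.77 ± 0.14 and H2-M3 by 0.96 ± 0.19 in the authors' deposited table for IFNg v IgG. The other 2 class I genes did not pass, B2m at 0.51 ± 0.18 and H2-T23 at 0.69 ± 0.26, nor did the chaperones Calr, Canx and Pdia3, between -0.16 and 0.11, in the authors' deposited table. The list's median log2 change was 0.69, against 1.60 for the 10 processing genes. Of 8 peptide trimming enzymes 1 rose, Erap1, which trims peptides inside the endoplasmic reticulum, by 0.64 ± 0.18 (adjusted p = 0.0139), and 0 fell in the authors' deposited table. Of 9 factors of the interferon-gamma pathway 4 rose and 0 fell. They were the transcription factors Irf1 at 2.48 ± 0.14, Irf9 at 0.74 ± 0.17 and Irf2 at 0.60 ± 0.16 and the feedback inhibitor Socs1 at 1.05 ± 0.26, in the authors' deposited table.

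Leukocytes use the immunoproteasome without stimulation, so their markers were set beside these values. The summed levels of the 4 pan-leukocyte markers were 34.5 in IFNg, 51.4 in aPD-1+CD8, 33.2 in aPD-1 and 55.4 normalized counts in IgG cultures. In IFNg v IgG 3 of the 4 were tested and 0 were called, and 3 of the 4 had a mean count under 10. Of 10 T and NK cell markers 2 were in all tables, and they summed to 0.272 in IFNg, 0.349 in aPD-1+CD8, 1.10 in aPD-1 and 0.915 in IgG cultures. The 9 macrophage markers in all tables summed to 480 in IFNg, 185 in aPD-1+CD8, 182 in aPD-1 and 202 in IgG cultures. Csf1r alone held 337 of these in IFNg cultures, against 24.9 in IgG cultures, and the authors' tables with IFNg leave its p-value empty, as DESeq2 does for an outlying count. Without it the other 8 summed to 143 in IFNg, 160 in aPD-1+CD8, 163 in aPD-1 and 177 in IgG cultures. Of 7 macrophage markers tested in IFNg v IgG 1 was lower, Mrc1, and 0 were higher. The 5 dendritic cell markers found in all tables summed to 39.5 in IFNg, 44.2 in aPD-1+CD8, 66.6 in aPD-1 and 42.5 in IgG cultures. They did not move together. Ccr7 was at 15.4 in aPD-1 and 0.535 in IgG cultures, Itgax at 2.30 and 12.7, and Zbtb46 at 45.9 and 28.5. Of the 5, 3 had a mean count under 10 in every table. The 2 B cell markers found in all tables, mostly Pax5, summed to 48.4 in IFNg, 22.5 in aPD-1+CD8, 6.81 in aPD-1 and 26.8 in IgG cultures. Of 6 fibroblast markers 1 was higher, Dcn, and 2 were lower, Col1a1 and Col3a1, in IFNg v IgG, and they summed to 2682 in IFNg and 2841 in IgG cultures. The part of these markers in the IFNg values was not tested.

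**Figure D4:**
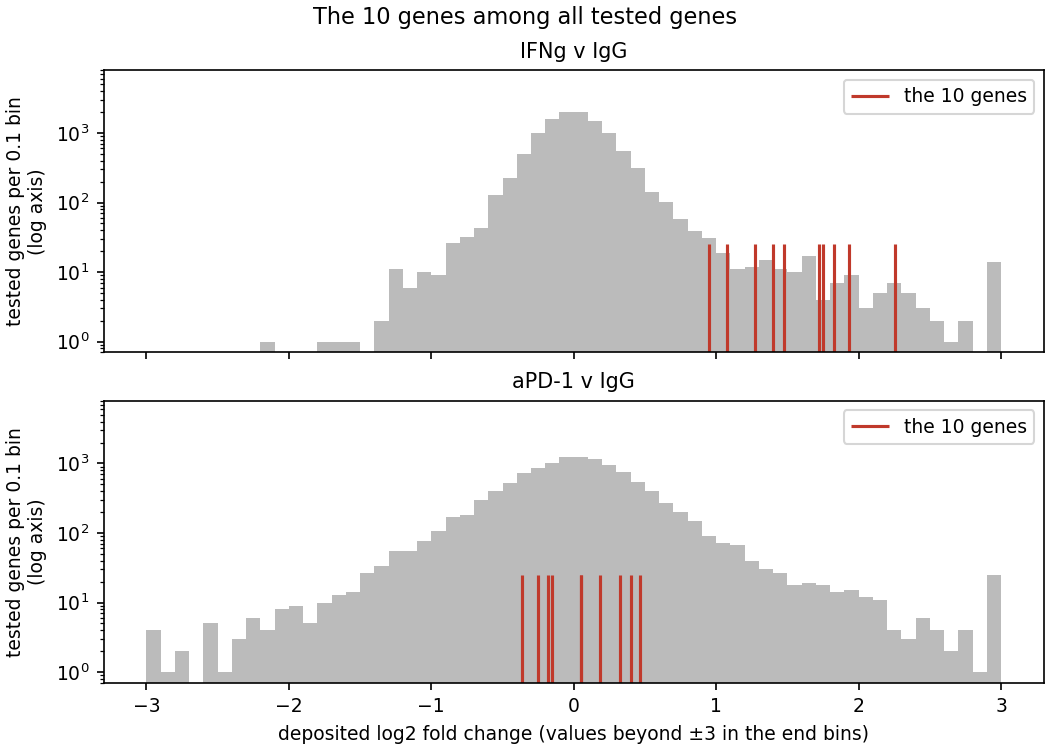
Number of tested genes in each 0.1-wide bin of deposited log2 fold change (log y axis; values beyond 3 in either direction fall in the end bins) for IFNg v IgG and aPD-1 v IgG, with a red line at each of the 10 genes; line height has no meaning. With IFNg the lines stand between 0.95 and 2.25, in the upper tail, and with aPD-1 between -0.36 and 0.46, in the bulk of the genes.

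With the PD-1 antibody 0 of the 10 were called, and 10 genes are too few to set this apart from the share of all genes. In the authors' deposited table for aPD-1 v IgG 18.5% of 12024 tested genes were called, and 0 of the 10 passed (DESeq2). At an unadjusted p under 0.05 there were 2, against 21.7% of all genes with a p-value: Tapbp at 0.40 ± 0.17 (p = 0.0188, adjusted p = 0.0867) and Psmb10 at 0.46 ± 0.22 (p = 0.0396, adjusted p = 0.150) in the authors' deposited table. The median log2 change of the 10 was 0.05, against 0.01 over all tested genes.

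The point estimates ran both ways under aPD-1. The authors' deposited table had 6 of 10 above 0, led by Psmb10, Tapbp and Tap2 at 0.32 ± 0.24, and 4 below, led by Nlrc5 at -0.36 ± 0.22 and Tap1 at -0.25 ± 0.23. Psmb8 was at 0.05 with a 95% interval from -0.54 to 0.64, and Psmb9 at -0.15 with one from -0.79 to 0.48, in the authors' deposited table. The others lay near 0: Tapbpl was at 0.18 ± 0.33, Psme2 at 0.05 ± 0.19 and Psme1 at -0.18 ± 0.15 in the authors' deposited table. The highest upper bound among the 10, from the authors' deposited table for aPD-1 v IgG, was 0.90, for Psmb10. Each bound was computed here from a deposited change and its SE. The deposited changes are shrunken toward 0, so the bounds are approximate. Intervals this wide do not show that levels were equal.

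Neighbouring genes of the pathway were called in the same comparison. H2-K1 fell by 0.52 ± 0.11, B2m by 0.54 ± 0.17 and the nonclassical H2-T23 by 1.46 ± 0.32 in log2, while the chaperones Calr at 1.04 ± 0.12 and Pdia3 at 0.66 ± 0.15 rose, in the authors' deposited table for aPD-1 v IgG. That made 2 of 9 higher and 3 lower, with a list median of -0.25. Among the interferon-gamma factors Irf9 fell by 1.18 ± 0.22, and Jak2 at 1.07 ± 0.19, Ifngr1 at 0.79 ± 0.25 and Irf1 at 0.42 ± 0.16 rose in the authors' deposited table. Of the 8 trimming enzymes Npepps at 0.57 ± 0.13 and Lnpep at 0.55 ± 0.15 rose, and Lap3 at -0.68 ± 0.17 and Thop1 at -0.67 ± 0.19 fell in the authors' deposited table. Among the core subunits 0 of the 3 constitutive catalytic and 0 of the 11 others were called. Psme3 fell, at -0.48 ± 0.17, and Psme4, an alternative activator, rose, at 0.40 ± 0.13, in the authors' deposited table. Fibroblast markers moved with this contrast: 4 of 6 were called higher. The 6 summed to 8886 normalized counts in aPD-1 cultures, against 2841 in IgG cultures. Other cell type markers were called too in the authors' deposited table. Ccr7 at 1.91 ± 0.42 and Cd14 at 1.08 ± 0.37 rose. Pax5 at -1.41 ± 0.39, Itgax at -1.25 ± 0.41 and Krt19 at -1.07 ± 0.38 fell. Ccr7, Itgax and Krt19 had mean counts under 10 there. The part of all these markers in the values was not tested.

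**Figure D5:**
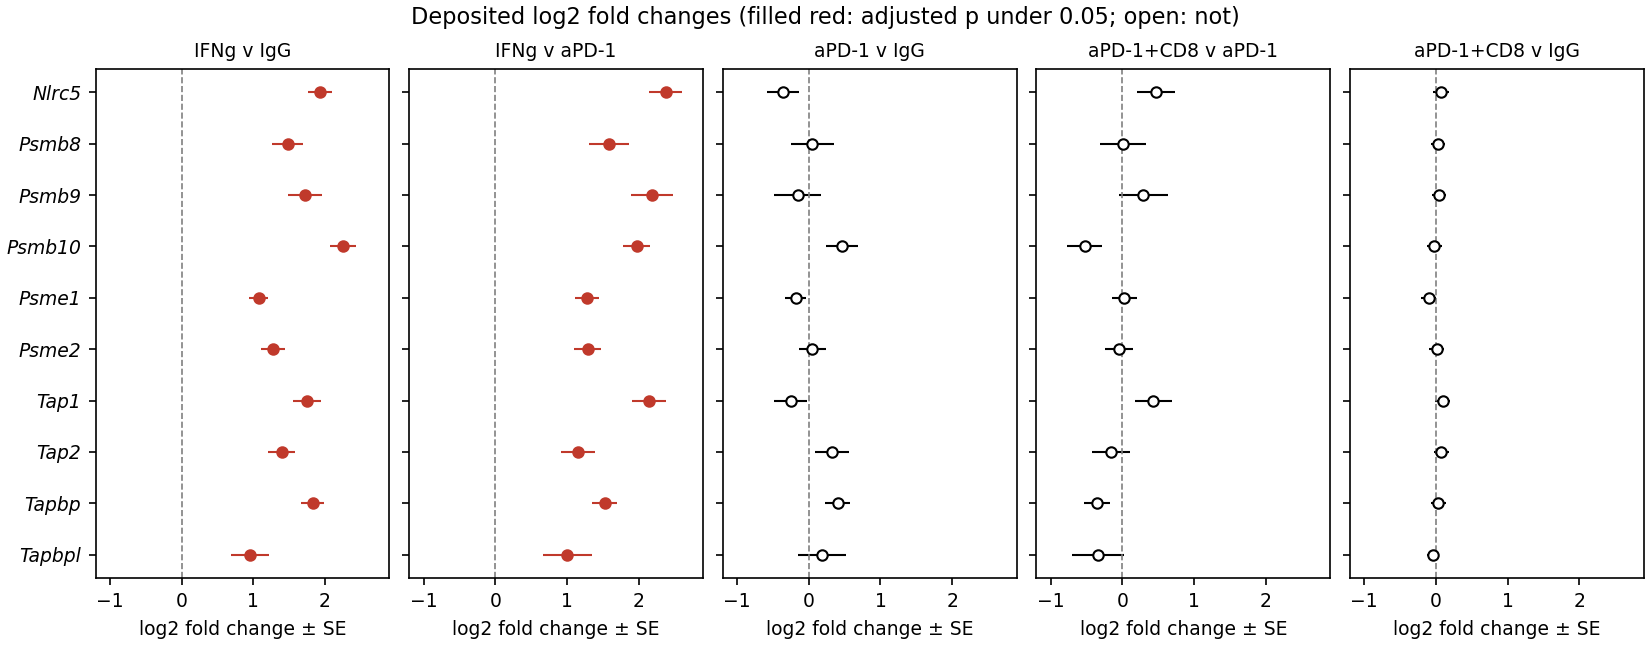
Deposited log2 fold change with its SE (x axis) of the 10 genes in the 5 comparisons; red filled points have an adjusted p under 0.05. All 10 points are filled in the 2 comparisons of IFNg and none in the other 3; the small spread in aPD-1+CD8 v IgG goes with a stronger shrinkage of that table.

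With the CD8 antibody added 0 of the 10 were called either, again too few genes to set apart from the share of all genes. Of 11560 tested genes 14.8% were called in the authors' deposited table for aPD-1+CD8 v aPD-1, and 0 of the 10 passed (DESeq2). At an unadjusted p under 0.05 there was 1, against 19.3% of all genes: Psmb10 at -0.53 ± 0.24 (p = 0.0308, adjusted p = 0.142) in the authors' deposited table. The next by p-value were Tapbp at -0.35 ± 0.18 and Nlrc5 at 0.47 ± 0.27 in the authors' deposited table. Tap1 was at 0.43 ± 0.26, Tapbpl at -0.34 ± 0.36, Psmb9 at 0.29 ± 0.34 and Tap2 at -0.16 ± 0.26, and Psme2, Psme1 and Psmb8 lay between -0.04 and 0.03, in the authors' deposited table. Thus 5 of 10 were above 0 and 5 below. This comparison and aPD-1 v IgG share the aPD-1 libraries, so opposite signs in them are not separate evidence. H2-K1 at 0.56 ± 0.15, B2m at 0.62 ± 0.20 and H2-T23 at 1.26 ± 0.36 were higher with aPD-1+CD8, and Calr at -1.22 ± 0.15 and Pdia3 at -0.76 ± 0.21 lower, in the authors' deposited table. Fibroblast markers were lower in 3 of 6 genes, and summed to 2578 normalized counts in aPD-1+CD8 cultures, against 8886 in aPD-1 cultures. Of the other cell type markers Pax5 at 1.12 ± 0.41 was higher and Ccr7 at -1.83 ± 0.43 lower in the authors' deposited table. The part of all these markers was not tested.

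In aPD-1+CD8 v IgG 0% of 15304 tested genes were called in the authors' deposited table (DESeq2), and 0.372% had an unadjusted p under 0.05, with 0 of the 10 among them. The lowest adjusted p of any gene there was 0.9998 (DESeq2), so the lack of calls says nothing particular about the 10. The deposited changes there lay between -0.10 for Psme1 and 0.09 for Tap1 in the authors' deposited table, 7 above 0 and 3 below. They are strongly shrunken: the slope of solved on deposited log2 ratios was 1.61 there, against 1.05 to 1.15 in the other comparisons. The ratios of approximate means ran from -0.21 in log2 for Tapbpl to 0.21 for Tap1. Among the aPD-1+CD8, aPD-1 and IgG groups none of the 10 genes was called in any pair, which does not show equal levels. All 10 were called higher in IFNg than in IgG and in aPD-1. No comparison of IFNg with aPD-1+CD8 was given, and there IFNg was higher by approximate means only.

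IFNg was also set against aPD-1, which tests whether their effects relative to IgG differ. The IFNg libraries are the same as in IFNg v IgG, so these calls are not separate evidence. In the authors' deposited table for IFNg v aPD-1 10 of 10 genes were higher with IFNg (DESeq2), where 8.39% of 12260 tested genes were called higher and 15.5% in either direction. Nlrc5 at 2.38 ± 0.23 (adjusted p = 1.54e-22), Psmb9 at 2.19 ± 0.30 and Tap1 at 2.15 ± 0.24 led in log2 change, and Tapbpl at 1.004 ± 0.34 (adjusted p = 0.0262) was lowest, in the authors' deposited table. All 10 also passed with at least 1 in log2 required, where 3.87% of tested genes did. The ratio of approximate means ran from 2.23 for Tapbpl to 5.73 for Nlrc5. Psmb10 was at 1.97 ± 0.19, Psmb8 at 1.59 ± 0.28, Tapbp at 1.53 ± 0.17, Psme2 at 1.29 ± 0.19, Psme1 at 1.28 ± 0.17 and Tap2 at 1.15 ± 0.23 in the authors' deposited table. Of the class I list 6 of 9 were higher with IFNg and 1, Calr, was lower. H2-K1 at 1.41 ± 0.15 and H2-Q4 at 1.34 ± 0.17 had the lowest adjusted p of that list in the authors' deposited table. Irf1 at 2.17 ± 0.16, Irf9 at 1.98 ± 0.23 and Socs1 at 1.37 ± 0.35 were higher there, and Jak2 and Ifngr1 lower, so 3 of 9 interferon-gamma factors were higher and 2 lower in the authors' deposited table. Of the trimming enzymes Lap3 at 0.96 ± 0.20 and Thop1 at 0.86 ± 0.22 were higher and Lnpep at -0.64 ± 0.21 lower in the authors' deposited table. The constitutive catalytic subunits gave 0 calls of 3, and the 11 other core subunits also 0. Of the 7 other proteasome genes 1 was lower, Psme4 at -0.54 ± 0.15 (adjusted p = 0.00469) in the authors' deposited table. Calr, Jak2, Ifngr1, Lap3, Thop1, Lnpep and Psme4 were each called in aPD-1 v IgG but not in IFNg v IgG. Fibroblast markers were lower in 4 of 6 genes here and summed to 2682 normalized counts in IFNg cultures, against 8886 in aPD-1 cultures. Of the other cell type markers Pax5 at 2.29 ± 0.42 and C1qc at 1.44 ± 0.49 were higher in the authors' deposited table. Ccr7 at -2.46 ± 0.51 and Mrc1 at -1.90 ± 0.49 were lower in the authors' deposited table. The part of all these markers in the values was not tested.

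The genes nearest to the 10 in profile were sought among 5706 genes with a mean count reaching 100 in each table. Nearness was the root mean square distance to the median log2 fold change of the 10 in IFNg v IgG, in aPD-1+CD8 v IgG and in aPD-1 v IgG, which share the IgG libraries. The nearest 5 were Fam46a at a distance of 0.170, Ly6e at 0.183, Stat2 at 0.269, Parp11 at 0.270 and Helz2 at 0.277. The 10 genes themselves lay between 0.0716 for Psmb8 and 0.446 for Psmb10 from that median. A rise in IFNg v IgG was part of how the nearest 5 were picked, since the median of the 10 there was 1.60. Their changes in it ran from Helz2 at 1.26 ± 0.15 to Stat2 at 1.79 ± 0.16 in the authors' deposited table. In aPD-1 v IgG they ran from Parp11 at -0.40 ± 0.18 to Ly6e at 0.14 ± 0.19 in the authors' deposited table. The median of the 10 there was 0.05. Stat2, a transcription factor of interferon signalling, averaged 620 normalized counts in IFNg, 142 in aPD-1+CD8, 121 in aPD-1 and 158 in IgG cultures.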

How the data were processed

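The deposited files were 5 tables of the authors' comparisons, made with DESeq2 on mm9 per the submitters' processing notes. The authors' aligner, counter, annotation, strand setting and DESeq2 version were not given in the sources used here. The columns, per the file headers, are a mean normalized count (a signal averaged over both groups), a log2 fold change, the standard error of that change, the Wald score, and the p-value before and after adjustment. A gene was called at an adjusted p under 0.05 in the authors' DESeq2 test over the whole table. There were 0 columns of single samples, so library depth is unknown.

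Group means were solved from the mean counts of the tables (Python 3.11.15, numpy 2.4.6, pandas 2.3.3, scipy 1.17.1), taking each table's count as the average of 2 equal groups. A depth factor for each group, from 0.852 to 1.12, was fitted on 3509 genes whose mean count reached 300 in every table. The solved log2 ratios then differed from the deposited changes by a median of 0.0077 to 0.0211. The factors were chosen to make the median gap small on the fitted genes, so it is no separate check. Depth factors were added after the data were seen. The solution was also run on simulated data, whose changes were not shrunken as the deposited ones are, so that run does not check the effect of shrinkage.

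The 10 genes, the 15 other lists, the motifs and the naming rule (up to 4 list members by adjusted p, the constitutive catalytic subunits, Irf1, and the 5 nearest genes) were chosen with earlier results of these data known. Further list members, the overlapping genes and the copies were named after their values were seen. Overlapping genes were taken by name from a GENCODE mouse annotation. The planned protein comparison was not made here, and 1 gene of the lists is not reported here.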

Additional observations from a re-analysis of the deposited data

How the results depend on the processing

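The number of the 10 genes called was the same in all 5 comparisons when genes with low counts were kept, when a mean count of 10 was required, and after re-centring on the median of all genes. In IFNg v aPD-1 it was 9 under an adjusted p of 0.01 and 9 with an empirical null, against 10; in IFNg v IgG it was 9 with a log2 change of at least 1 required, against 10. The empirical null moved the count of all genes called to 348 in IFNg v IgG, 552 in IFNg v aPD-1, 523 in aPD-1 v IgG and 394 in aPD-1+CD8 v aPD-1, against 471, 1903, 2229 and 1706. Re-centring changed no sign among the 50 changes of the 10 genes and no call; the shift it removes lay between -0.0143 and 0.00404 in log2. Against ratios of approximate means 12 of the 50 changes moved by more than their SE, all away from 0, and through another group 4 did. Signs changed for 1 and 4 changes, all of genes not called in that comparison (Psmb8, Psme2 and Tapbpl). The median log2 ratio of IFNg to IgG over the 10 genes was 1.90, and 1.77 when the tables were taken as on 1 scale, a setting chosen after seeing the data. With a mean count of 50 required, 4 of the 5 nearest genes were the same, and Trafd1 entered as the nearest, at a distance of 0.128. No paired analysis was possible because the tables hold no columns of single samples; leaving out a library was not possible either.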

Other observations

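Of 8 genes for the RFX and NF-Y subunits, Creb1 and the class II transactivator Ciita, 1 rose and 0 fell in the authors' deposited table for IFNg v IgG. It was Ciita, at 1.48 ± 0.27 (adjusted p = 3.81e-06, DESeq2) with a mean count of 11.9 there. Rfx5, a subunit of the factor on which NLRC5 acts, was at 0.26 ± 0.22 there without passing, and rose in aPD-1 v IgG by 0.73 ± 0.22 (adjusted p = 0.00788) in the authors' deposited table. The half-transporters Abcb8, Abcb9 and Abcb10, relatives of TAP, had changes of -0.27 ± 0.27, -0.31 ± 0.28 and 0.13 ± 0.24 with IFNg in the authors' deposited table, and 0 of 3 passed.

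Beside the pair Tap1 and Psmb9, 4 genes annotated to overlap a member were looked up. Mir7072, which overlaps Nlrc5 on the same strand but not in exons, was not looked up. Zbtb22 overlaps Tapbp in exons and on the same strand, and Vamp1 overlaps Tapbpl on the opposite strand but not in exons. Zbtb22 was at 0.17 ± 0.24 and Vamp1 at -0.03 ± 0.28 in the authors' deposited table for IFNg v IgG, and neither passed. Emc9, opposite Psme1, had a mean count of 2.27 there and 9330175E14Rik, opposite Nlrc5, one of 1.84, and neither has an adjusted p there.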
